A study of Mus musculus with 48 samples.

Results

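Semaphorins, plexins and neuropilins form one signalling system of ligands and receptors. Its members were taken by gene symbol: semaphorins of classes 3 to 7 (Sema3a to Sema7a), plexins A to D (Plxna1 to Plxnd1) and the neuropilins Nrp1 and Nrp2. The rule found 31 genes among the 37620 in the count table: 20 semaphorins, 9 plexins and 2 neuropilins. Their RNA was measured by sequencing in 16 kinds of mouse hippocampal neuron, with 3 libraries each and 48 in all. Fluorescent neurons had been sorted by hand from microdissected slices, and their RNA was amplified before sequencing.

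The CA1 pyramidal cells, the output neurons of the hippocampus, came as 10 populations: dorsal, intermediate and ventral cells, proximal and distal cells, superficial and deep cells, and cells that project to the postsubiculum (dorsal CA1), the amygdala or the nucleus accumbens (both ventral CA1). CA3 pyramidal cells and the granule cells of the dentate gyrus (DG), each taken dorsally and ventrally, made 4 more. The remaining populations were parvalbumin (PV) and somatostatin (SST) interneurons, labelled as CA1 with no place on the long axis. No genotype, strain, age or treatment is given for any group, and the fluorescent label of the cells is not named. The series calls the 3 libraries of a population biological replicates, but nothing says that they came from separate animals, so the p-values measure only the spread between these libraries.

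Semaphorins are secreted or membrane-bound proteins that steer growing axons and dendrites and, in mature neurons, tune synapses. Class 3 semaphorins are secreted and bind neuropilins, which pass the signal through plexins of the A family; Sema3e is the exception and binds plexin D1 directly. Class 4 semaphorins act mainly on plexins B, classes 5 and 6 mainly on plexins A, and Sema7a, tethered to the membrane by a lipid anchor, on plexin C1 and integrins. Plexins carry a cytoplasmic domain that switches off small GTPases of the Rap family. In the hippocampus the system is known for sorting mossy fibres into their layer, pruning them, and limiting spines on granule cells.

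Reads counted in genes ranged from 5.12 M to 31.98 M per library (median 19.34 M), and the 31 genes took 0.106% to 0.385% of them. Levels of one gene across populations are given as CPM (reads scaled to library size with TMM factors), and levels of different genes as the deposited FPKM, which is also divided by length. One read was worth 0.030 to 0.183 CPM. The marker lists for CA1, CA3 and granule cells were each highest in the populations so labelled. CA3 markers, at 542 CPM or more in CA3 libraries, also read 129 to 284 CPM in DG and 142 to 312 CPM in SST libraries. Pou3f1, one of the CA1 markers, had no reads in any population. The 3 GABAergic markers Gad1, Gad2 and Slc32a1 together stood at 151 to 696 CPM in deep CA1, at 125 CPM in proximal CA1 replicate 1 and at 141 CPM in superficial CA1 replicate 3, against 0 to 1.41 CPM in dorsal CA1. In such pooled cells, fewer cells of a type and less RNA per cell cannot be told apart.

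The promoters of 4 genes are printed because their genes carry the clearest patterns below: Sema5a was high in CA3 and DG and low in CA1, Plxnd1 was highest in CA1, and Plxnc1 and Sema7a had opposite slopes on the long axis. The RefSeq promoter table (build GRCm38.p6) had an entry for 26 of the 31 genes, all but Sema3b, Sema3f, Sema6a, Plxna1 and Plxna4. Each sequence is the 250 bases before the annotated start, 5′ to 3′ on the gene's own strand, at chr15:32244563-32244812 (plus strand), chr6:115995006-115995255 (minus), chr10:94944846-94945095 (minus) and chr9:57939862-57940111 (plus). Capitals mark GC boxes, the letters GGGCGG on either strand.
Sema5a: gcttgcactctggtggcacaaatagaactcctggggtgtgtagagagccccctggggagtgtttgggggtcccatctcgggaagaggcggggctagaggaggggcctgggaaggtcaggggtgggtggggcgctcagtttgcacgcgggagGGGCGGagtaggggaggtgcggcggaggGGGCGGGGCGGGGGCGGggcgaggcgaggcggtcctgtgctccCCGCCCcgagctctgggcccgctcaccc
Plxnd1: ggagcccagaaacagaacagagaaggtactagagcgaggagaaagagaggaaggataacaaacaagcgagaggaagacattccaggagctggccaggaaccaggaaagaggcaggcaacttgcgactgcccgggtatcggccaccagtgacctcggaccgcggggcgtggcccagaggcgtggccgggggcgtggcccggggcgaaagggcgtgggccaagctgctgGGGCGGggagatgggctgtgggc
Plxnc1: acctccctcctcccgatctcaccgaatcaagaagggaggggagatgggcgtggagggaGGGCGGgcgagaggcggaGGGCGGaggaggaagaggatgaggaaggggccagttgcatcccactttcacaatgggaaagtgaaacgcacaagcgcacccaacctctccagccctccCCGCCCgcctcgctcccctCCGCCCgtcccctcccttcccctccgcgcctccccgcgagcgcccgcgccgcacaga
Sema7a: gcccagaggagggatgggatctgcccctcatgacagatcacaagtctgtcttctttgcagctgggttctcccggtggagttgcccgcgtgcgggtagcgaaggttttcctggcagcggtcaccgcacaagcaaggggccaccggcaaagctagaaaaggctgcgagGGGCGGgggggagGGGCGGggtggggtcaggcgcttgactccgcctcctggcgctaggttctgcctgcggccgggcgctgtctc
GC boxes, some of them overlapping, numbered 5 in the Sema5a window, 1 in Plxnd1, 4 in Plxnc1 and 2 in Sema7a, and 32.7% of all 32851 promoter windows of this length held at least 1. None of the 4 windows held a TATA box (TATAAA, in 12.4% of all windows), a CCAAT box (CCAAT, 33.8%) or a cyclic AMP response element (TGACGTCA, 1.55%) on either strand. The E-box letters CANNTG occurred once in Plxnc1 and once in Sema7a, against 66.2% of all windows with at least 1. All 4 windows were rich in G and C, at 72% in Sema5a, 64.8% in Plxnd1, 68.8% in Plxnc1 and 66.4% in Sema7a, against a median of 52.4%.

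Per length, 27 of the 31 genes reached a mean of 1 FPKM in at least 1 population, and each population held 18 to 23 of them at that level. The other 4, the secreted Sema3b, Sema3f and Sema3g and the receptor Plxnb3, stayed under 1 FPKM in all 16. Plexin A4 was the highest member in 9 populations: 7 of CA1, dorsal CA3 and PV interneurons. Sema3e led in postsubiculum- and amygdala-projecting CA1, Plxnc1 in accumbens-projecting CA1, Nrp2 in ventral CA3, Sema5a in both DG populations and Sema3a in SST interneurons.

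**Figure D1:**
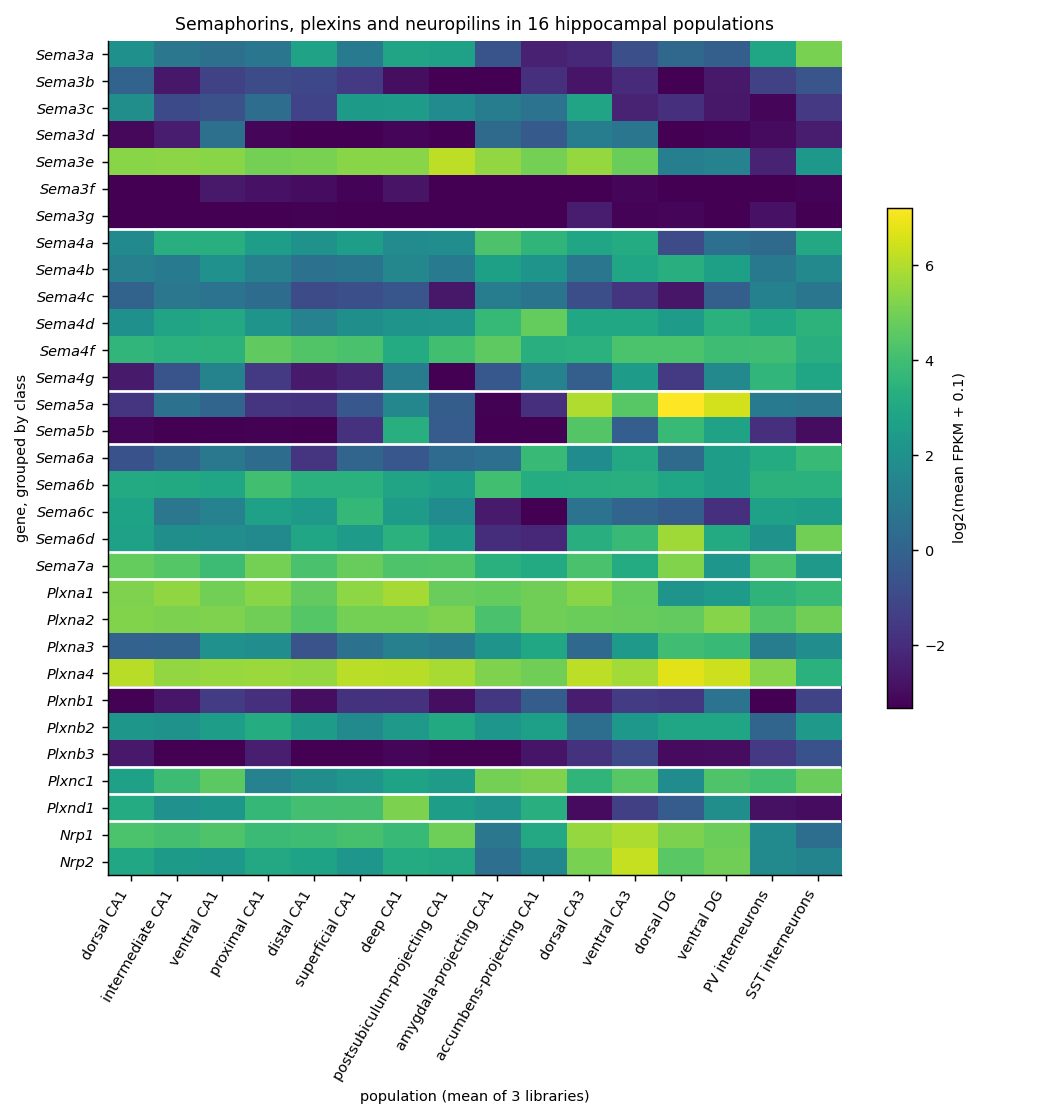
Heat map of log2(mean FPKM + 0.1) for the 31 genes (rows, white lines between classes) in the 16 populations (columns, mean of 3 libraries). Plxna4, Plxna2 and Sema3e are bright in most columns, Sema5a is bright in CA3 and DG, and Sema3b, Sema3f, Sema3g and Plxnb3 stay dark.

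Among the class 3 ligands, Sema3e was the most abundant. In CA1 pyramidal cells its mean FPKM was 40.7 ± 1.77 in dorsal, 41.2 ± 6.13 in intermediate, 40.02 ± 1.99 in ventral, 32.2 ± 10.2 in proximal, 34.1 ± 3.81 in distal, 40.8 ± 3.04 in superficial, 40.2 ± 1.85 in deep, 71.1 ± 12 in postsubiculum-projecting, 45.4 ± 9.43 in amygdala-projecting and 32.2 ± 6.22 in accumbens-projecting cells. Elsewhere Sema3e stood at 46.6 ± 3.1 in dorsal CA3, 28.7 ± 12.8 in ventral CA3, 2.21 ± 1.66 in dorsal DG, 2.46 ± 0.599 in ventral DG, 0.103 ± 0.0676 in PV interneurons and 4.79 ± 3.49 in SST interneurons. Pyramidal cells of CA1 and CA3 thus held Sema3e at 28.7 FPKM or more, and the granule cells and interneurons at 4.79 FPKM or less. Its receptor Plxnd1 was uneven over the same cells. Mean FPKM of Plxnd1 in CA1 was 8.77 ± 4.02 in dorsal, 3.92 ± 2.5 in intermediate, 4.65 ± 0.179 in ventral, 12.8 ± 4.09 in proximal, 16.5 ± 2.96 in distal, 17.4 ± 4.74 in superficial, 34.6 ± 5.34 in deep, 5.74 ± 3.77 in postsubiculum-projecting, 4.37 ± 1.42 in amygdala-projecting and 9.92 ± 15.4 in accumbens-projecting cells, and outside CA1 it was 0.0228 ± 0.027 in dorsal CA3, 0.304 ± 0.249 in ventral CA3, 0.735 ± 0.65 in dorsal DG, 3.64 ± 2.29 in ventral DG, 0.0408 ± 0.0318 in PV interneurons and 0.0275 ± 0.0477 in SST interneurons. Plxnd1 was highest in deep CA1 and lowest in dorsal CA3, and its 3 accumbens-projecting libraries were far apart.

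Nrp2, which binds Sema3f among the class 3 ligands, was the higher of the neuropilins at its peak. It measured 7.65 ± 0.367 in dorsal, 5.2 ± 3.23 in intermediate, 4.84 ± 1.66 in ventral, 8.05 ± 3.26 in proximal, 6.76 ± 5.32 in distal, 4.55 ± 2.31 in superficial, 8.78 ± 3.88 in deep, 8.02 ± 1.54 in postsubiculum-projecting, 1.35 ± 0.844 in amygdala-projecting and 2.91 ± 3.17 in accumbens-projecting FPKM in the CA1 populations. The remaining means of Nrp2 were 34.1 ± 4.69 in dorsal CA3, 77.2 ± 5.81 in ventral CA3, 22.9 ± 10.2 in dorsal DG, 30.6 ± 4.25 in ventral DG, 3.24 ± 1.61 in PV interneurons and 2.57 ± 0.953 in SST interneurons FPKM. Every CA3 and DG population was above every CA1 population for Nrp2, and both interneuron types were at the low end. Nrp1, the receptor of Sema3a, also peaked in ventral CA3, at 61 ± 5.87 FPKM, and was lowest in SST interneurons, at 1.3 ± 0.635 FPKM.

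Plxna4, a receptor for Sema6a and, with neuropilins, for Sema3a, was present in every population. Over CA1 the Plxna4 level was 67.3 ± 0.943 in dorsal, 45.8 ± 7.63 in intermediate, 48.1 ± 1.49 in ventral, 49.97 ± 4.88 in proximal, 46.4 ± 1.4 in distal, 69.1 ± 4.84 in superficial, 68 ± 3.39 in deep, 56.6 ± 14.5 in postsubiculum-projecting, 35.7 ± 2.61 in amygdala-projecting and 30.4 ± 1.51 in accumbens-projecting FPKM, and in the other cells 70.8 ± 2.45 in dorsal CA3, 54.5 ± 6.96 in ventral CA3, 108 ± 13.9 in dorsal DG, 86.1 ± 2.04 in ventral DG, 39.9 ± 8.56 in PV interneurons and 10.5 ± 1.77 in SST interneurons FPKM. The granule cells were highest, and SST interneurons were lowest. Plxna2, the other receptor of Sema6a, varied less, from 18.4 ± 6.9 FPKM in amygdala-projecting CA1 to 39.3 ± 4.36 in ventral DG. Plxna1 ranged from 4.24 ± 1.26 in dorsal DG to 55.5 ± 5.45 in deep CA1, and Plxna3 from 0.54 ± 0.209 in distal CA1 to 15.8 ± 12.8 in dorsal DG.

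Sema5a, a membrane semaphorin with thrombospondin repeats, reached the highest mean of all 31 genes. Its CA1 means were 0.21 ± 0.0403 in dorsal, 1.46 ± 0.938 in intermediate, 0.997 ± 0.576 in ventral, 0.199 ± 0.112 in proximal, 0.192 ± 0.128 in distal, 0.622 ± 0.345 in superficial, 2.85 ± 2.12 in deep, 0.751 ± 1.3 in postsubiculum-projecting, 0.00368 ± 0.00319 in amygdala-projecting and 0.17 ± 0.294 in accumbens-projecting FPKM. The other means were 62.4 ± 16.2 in dorsal CA3, 22.1 ± 15.9 in ventral CA3, 149 ± 19.8 in dorsal DG, 90.5 ± 5.77 in ventral DG, 1.97 ± 1.4 in PV interneurons and 1.7 ± 1.05 in SST interneurons FPKM. Dorsal DG exceeded every CA1 population many times over, and within CA1 the postsubiculum- and accumbens-projecting libraries had an SD above their mean. Sema6d, the most abundant class 6 member at its peak and a ligand of Plxna1, measured 6.38 ± 1.24 in dorsal, 3.76 ± 0.734 in intermediate, 3.48 ± 1.99 in ventral, 3.12 ± 1.31 in proximal, 7.28 ± 3.58 in distal, 5.51 ± 2.45 in superficial, 10.6 ± 2.85 in deep, 5.98 ± 1.5 in postsubiculum-projecting, 0.159 ± 0.0783 in amygdala-projecting and 0.135 ± 0.128 in accumbens-projecting FPKM in CA1. Beyond CA1 the Sema6d means were 10.03 ± 0.818 in dorsal CA3, 13.7 ± 14.6 in ventral CA3, 51.9 ± 16.6 in dorsal DG, 8.62 ± 1.86 in ventral DG, 4.18 ± 1.37 in PV interneurons and 31 ± 1.32 in SST interneurons FPKM. Dorsal DG and SST interneurons were its high points, and cells projecting to the amygdala or accumbens its low points.

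Sema7a and its receptor Plxnc1 were found in all 16 populations. Sema7a had means of 26.3 ± 5.37 in dorsal, 21.6 ± 1.83 in intermediate, 15 ± 2.13 in ventral, 32.3 ± 4.26 in proximal, 18.3 ± 4.71 in distal, 27.4 ± 2.02 in superficial, 19.9 ± 3.66 in deep, 20.4 ± 2.2 in postsubiculum-projecting, 10.1 ± 3.37 in amygdala-projecting and 8.52 ± 2.74 in accumbens-projecting FPKM in CA1 and of 18.2 ± 3.02 in dorsal CA3, 8.89 ± 2.28 in ventral CA3, 37.5 ± 7.23 in dorsal DG, 4.49 ± 1.5 in ventral DG, 18.4 ± 4.16 in PV interneurons and 5.09 ± 3 in SST interneurons FPKM elsewhere. For Plxnc1 the CA1 means were 6.36 ± 1.26 in dorsal, 14.9 ± 4.25 in intermediate, 23.8 ± 3.89 in ventral, 2.43 ± 1.4 in proximal, 3.62 ± 1.31 in distal, 4.45 ± 1.36 in superficial, 6.79 ± 1.97 in deep, 5.46 ± 0.838 in postsubiculum-projecting, 32.4 ± 6.64 in amygdala-projecting and 36.3 ± 4.77 in accumbens-projecting FPKM and the other means 11.9 ± 1.12 in dorsal CA3, 22.4 ± 4.43 in ventral CA3, 3.41 ± 1.43 in dorsal DG, 20.04 ± 3.75 in ventral DG, 16.2 ± 5.36 in PV interneurons and 28.1 ± 5.68 in SST interneurons FPKM. Where Plxnc1 was highest within CA1, in amygdala- and accumbens-projecting cells, Sema7a was at its lowest.

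Sema4d, a ligand of plexin B1, had the highest class 4 mean, in accumbens-projecting cells, but only through 1 library: the FPKM of single libraries ran from 6.53 to 61.99 and the counts from 25.5 to 44.5 CPM. Without that library the mean was 8.36 FPKM, below the 25.2 of Sema4f in proximal CA1, and the count table put Sema4d highest in amygdala-projecting cells. Its CA1 means were 3.81 ± 1.19 in dorsal, 7.03 ± 1.57 in intermediate, 8.06 ± 2.22 in ventral, 4.24 ± 0.134 in proximal, 2.47 ± 1.57 in distal, 3.74 ± 1.64 in superficial, 4.35 ± 1.39 in deep, 4.36 ± 3.07 in postsubiculum-projecting, 13.3 ± 8.91 in amygdala-projecting and 26.2 ± 31 in accumbens-projecting FPKM, against 7.89 ± 1.03 in dorsal CA3, 7.88 ± 1.18 in ventral CA3, 5.42 ± 4.56 in dorsal DG, 10.6 ± 2.29 in ventral DG, 7.8 ± 1.36 in PV interneurons and 11.1 ± 3.26 in SST interneurons FPKM in the other populations. Sema4f was steadier, at 8.76 to 25.2 FPKM in all 16. The plexins B were low: Plxnb2 measured 4.72 ± 2.44 in dorsal, 4.08 ± 0.831 in intermediate, 5.93 ± 2.22 in ventral, 9.15 ± 5.82 in proximal, 5.63 ± 1.24 in distal, 3.1 ± 0.4 in superficial, 5.12 ± 3.11 in deep, 8.34 ± 3.25 in postsubiculum-projecting, 4.58 ± 2.11 in amygdala-projecting and 6.09 ± 3 in accumbens-projecting FPKM in CA1 and 1.29 ± 0.313 in dorsal CA3, 4.76 ± 1.22 in ventral CA3, 7.31 ± 5.49 in dorsal DG, 7.5 ± 1.14 in ventral DG, 0.993 ± 1.46 in PV interneurons and 5 ± 4.31 in SST interneurons FPKM elsewhere, Plxnb1 peaked at 1.5 ± 1.02 FPKM in ventral DG, and Plxnb3 did not pass 0.523 FPKM. For 8 of the 31 genes, the count table and the FPKM table put a different population highest. These were Sema3g, Sema4b, Sema4d, Sema6a, Sema6b, Plxna2, Plxna3 and Plxnb2. The order of their levels thus depends on the table.

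The remaining genes were lower or narrower. Sema3a, the ligand of Nrp1, had its highest mean in SST interneurons (34.55 FPKM) and Sema3c in dorsal CA3 (7.02). Sema3d reached 2.095 FPKM, also in dorsal CA3. Of class 4, Sema4a peaked in amygdala-projecting CA1 (19.2 FPKM), Sema4b in dorsal DG (9.86), and Sema4c and Sema4g in PV interneurons (2.41 and 12.03). Sema5b was highest in dorsal CA3 (21.1 FPKM). Of class 6, Sema6a was highest in accumbens-projecting cells (13.97 FPKM), Sema6c in superficial CA1 (12.9), and Sema6b stayed between 5.92 and 16.3 FPKM in every population. By counts, Sema6a was highest in SST interneurons, at 73.7 CPM against 43.7 CPM in accumbens-projecting cells. Sema4b was highest by counts in ventral CA3 (23.8 CPM), and Plxna3 in ventral DG (37.9 CPM). Across 19 comparisons, Sema3f and Sema3g never had enough reads to be tested, and Sema4c, Sema4f, Sema6b and Plxnb3 were never called. The count table also lists the antisense genes Plxna4os1, Plxna4os2 and Plxna4os3, with 1898, 1968 and 171 reads over all libraries. Plxna4 itself had 514744 reads. Whether counting used strand is not given in the sources used here, so how far reads of these genes and of Plxna4 were kept apart is not known.

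The long axis of CA1 was the first comparison, tested with edgeR on counts, with p-values adjusted over all genes tested and a call at an adjusted p under 0.05. Dorsal CA1 was higher for 2 members, Plxna4 and Sema7a, and ventral CA1 for 7: Plxna3, Plxnb2, Plxnc1, Sema3d, Sema4d, Sema4g and Sema5a. These 9 were calls among the 25 members with enough reads to be tested, beside 15.1% of all genes tested, 7.17% with the dorsal and 7.95% with the ventral level higher. The median log2 fold change, dorsal minus ventral as in the values that follow, was 0.08 for the 25 members and -0.01 for all genes. Mean depth was 25.9 ± 3.99 M reads in dorsal and 7.01 ± 1.69 M in ventral CA1. Summed GABAergic markers were at 0 to 1.41 CPM in dorsal, 12.7 to 16.9 CPM in intermediate and 14.1 to 18.7 CPM in ventral libraries, and the 5 SST interneuron markers at 52.2 to 75.5, 137 to 179 and 452 to 570 CPM. Sst itself did not pass 5.35 CPM in these libraries. The 8 oligodendrocyte lineage markers, mostly Mbp, also stood apart, at 13.6 to 27.4, 33.2 to 38.6 and 49.1 to 67.8 CPM, with Mag, Cldn11 and Opalin at 0 in ventral cells. The part of other cells in the differences was not tested.

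Plxnc1, the receptor of Sema7a, measured 44.2, 33.1 and 49.5 CPM in the 3 dorsal libraries, 63.7, 108 and 113 CPM in the intermediate and 138, 127 and 176 CPM in the ventral ones. All ventral libraries stood above all dorsal ones, with intermediate cells between them in the mean (log2 fold change -1.84, SE 0.21, adjusted p = 4.42e-06). Sema7a ran the other way, at 83.6, 95 and 62.4 CPM in dorsal, 66.3, 58.1 and 68.4 CPM in intermediate and 45, 36.7 and 48.3 CPM in ventral libraries. Dorsal and ventral libraries did not overlap (log2 fold change 0.84, SE 0.19, adjusted p = 0.00449). For Plxna4 the dorsal libraries held 764, 741 and 754 CPM, the intermediate 567, 424 and 484 CPM and the ventral 495, 495 and 522 CPM. Its step lay between dorsal cells and the rest, which overlapped each other (log2 fold change 0.53, SE 0.10, adjusted p = 0.00086).

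Plxna3, the partner of Nrp2 in Sema3f signalling, was at 1.63, 2.32 and 1.55 CPM in dorsal and 14.8, 15.2 and 12.6 CPM in ventral libraries. The groups were far apart (log2 fold change -2.99, SE 0.52, adjusted p = 0.000355). Sema4g, a membrane-bound class 4 ligand, had 0.436, 0.337 and 0.136 CPM in dorsal and 13.9, 9.9 and 9.12 CPM in ventral libraries. It was near the limit of a few reads in dorsal cells and present in each ventral library (log2 fold change -5.17, SE 0.90, adjusted p = 0.000376). Sema4d measured 13.4, 12.9 and 13 CPM dorsally and 18.2, 34.5 and 39 CPM ventrally, with dorsal libraries close together and below all ventral ones (log2 fold change -1.27, SE 0.31, adjusted p = 0.00668). Plxnb2, which binds several class 4 ligands, held 13.4, 14.2 and 14 CPM in dorsal and 32.8, 25.1 and 19.1 CPM in ventral libraries. The groups did not overlap, but its call was the weakest of the 9 (log2 fold change -0.93, SE 0.31, adjusted p = 0.049) and ended when any 1 of 5 of the 6 libraries was left out, with adjusted p up to 0.196. Sema3d and Sema5a were called at low levels, with ventral means of 5.2 ± 3.46 and 7.92 ± 5.47 CPM, and the Sema5a call ended without ventral replicate 1 (adjusted p = 0.231) or without any 1 dorsal library.

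Dorsal against intermediate CA1 gave 7 calls among 25 members, beside 4.93% of all genes (1.69% higher in dorsal and 3.24% in intermediate cells). Plxna4 and Sema6c were higher dorsally, and Plxna3, Plxnc1, Sema4d, Sema4g and Sema5a in intermediate cells. The intermediate Sema4d libraries held 29.4, 33.6 and 21.5 CPM, all above the dorsal ones (log2 fold change -1.13, SE 0.30, adjusted p = 0.0364). Sema6c, a class 6 ligand, was at 10.3, 12.3 and 14 CPM in dorsal and 3.33, 1.59 and 1.5 CPM in intermediate libraries. It fell without overlap (log2 fold change 2.5, SE 0.71, adjusted p = 0.0474). Plxnc1 and Plxna4 differed here too (log2 fold change -1.2, SE 0.21, adjusted p = 0.00168 for Plxnc1, and log2 fold change 0.59, SE 0.10, adjusted p = 0.00135 for Plxna4). Sema5a was at 8.1, 23.4 and 5.3 CPM in intermediate libraries (log2 fold change -2.58, SE 0.61, adjusted p = 0.0163), and its call ended without intermediate replicate 2 (adjusted p = 0.218), as did those of Sema4g (0.633), Plxna3 (0.292), Sema4d (0.171) and Sema6c (0.19), so that the count dropped to 2. It was also 2 without dorsal replicate 1 or 2 and 3 without dorsal replicate 3. The test shared its dorsal libraries with the comparison before.

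Intermediate against ventral CA1 had 2 calls among 25 members, beside 5.03% of all genes (3.12% higher in intermediate and 1.91% in ventral cells). Plxna1, a receptor of class 3 and class 6 ligands, measured 292, 260.3 and 230.3 CPM in intermediate and 216, 147 and 122 CPM in ventral libraries. The lowest intermediate library was above the highest ventral one (log2 fold change 0.67, SE 0.17, adjusted p = 0.0217). Sema3d was the other call, higher in ventral cells (log2 fold change -3.83, SE 1.09, adjusted p = 0.0476). Neither call is firm: that of Plxna1 ended without intermediate replicate 1 (adjusted p = 0.0994) or 2 (0.0534) or ventral replicate 2 (0.0885) or 3 (0.0965), and that of Sema3d without any 1 of the 6 libraries, with adjusted p up to 0.241.

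**Figure D2:**
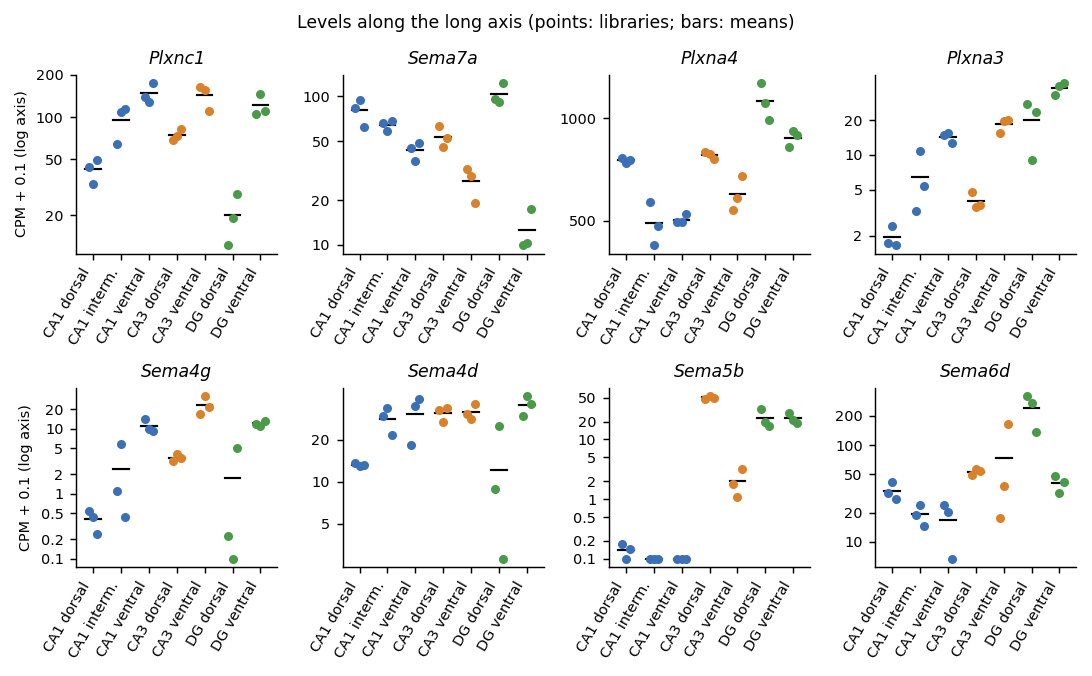
CPM + 0.1 on a log axis for 8 genes in dorsal, intermediate and ventral CA1, CA3 and DG, with 1 point per library and a bar at each mean. Plxnc1 is higher in every ventral library than in the dorsal ones of the same region, Sema7a is lower, and Sema5b falls from about 50.5 CPM in dorsal to 1.94 CPM in ventral CA3.

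The long axis of CA3 gave 10 calls among 29 members, 5 in each direction, beside 4.97% of all genes (2.5% higher dorsally and 2.48% ventrally). The median log2 fold change was -0.41 over the members tested and -0.04 over all genes. Plxna4, Sema3c, Sema5a, Sema5b and Sema7a were higher in dorsal CA3, and Nrp2, Plxna3, Plxnb2, Plxnc1 and Sema4b in ventral CA3. The 7 astrocyte markers together read 3867 to 4835 CPM in dorsal and 795 to 1167 CPM in ventral CA3, nearly all of it Slc1a2, while Gfap and Aqp4 did not pass 1.96 CPM in these libraries. CA1 markers summed to 10.9 to 20.9 CPM in dorsal and 62.8 to 86.6 CPM in ventral CA3. The part of other cells was not tested. The count of calls was 6 without dorsal replicate 2 or ventral replicate 2, and 4 without dorsal replicate 3.

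Sema5b, the close relative of Sema5a, measured 47.9, 53.5 and 50.1 CPM in dorsal and 1.67, 1 and 3.13 CPM in ventral libraries. Dorsal libraries were tightly grouped and far above ventral ones (log2 fold change 4.71, SE 0.53, adjusted p = 1.11e-05). Sema3c, a secreted class 3 ligand, was at 18.7, 19.2 and 27.3 CPM dorsally and 0.418, 0.0401 and 0.275 CPM ventrally, so that ventral CA3 held next to none (log2 fold change 6.45, SE 1.2, adjusted p = 0.00173). Sema5a had 429.5, 736 and 621 CPM in dorsal and 91.9, 165 and 389 CPM in ventral libraries. Ventral replicate 3 came close to the lowest dorsal library (log2 fold change 1.49, SE 0.42, adjusted p = 0.0499), and the call ended with dorsal replicate 2 (adjusted p = 0.204), dorsal replicate 3 (0.144), ventral replicate 1 (0.157) or ventral replicate 2 (0.248) left out. Sema7a held 62.8, 45.5 and 52.1 CPM in dorsal and 32.4, 28.8 and 19.1 CPM in ventral libraries, without overlap (log2 fold change 1.02, SE 0.27, adjusted p = 0.0281). Its adjusted p rose to 0.135 with dorsal replicate 1 left out, to 0.0847 with dorsal replicate 3, to 0.0856 with ventral replicate 2 and to 0.148 with ventral replicate 3.

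Nrp2 was at 150.4, 168 and 127 CPM in dorsal and 359, 369 and 317 CPM in ventral CA3. Every ventral library was above every dorsal one (log2 fold change -1.21, SE 0.26, adjusted p = 0.0074), though the call ended without dorsal replicate 3 (adjusted p = 0.0592). Plxna3 measured 4.71, 3.43 and 3.56 CPM dorsally and 15.3, 19.4 and 20.04 CPM ventrally, and Plxnb2 6, 6.42 and 6.59 and 20.1, 20.2 and 20.3 CPM. Both were low and even in dorsal CA3 and several times higher in ventral CA3 (log2 fold change -2.21, SE 0.41, adjusted p = 0.00153 for Plxna3, and log2 fold change -1.65, SE 0.36, adjusted p = 0.00733 for Plxnb2). Sema4b, a membrane-bound class 4 ligand, had 8.25, 3.09 and 4.4 CPM in dorsal and 25.2, 21.9 and 24.4 CPM in ventral libraries, again apart (log2 fold change -2.16, SE 0.52, adjusted p = 0.0148), with the call lost without dorsal replicate 2 (0.111) or 3 (0.0952). Plxnc1 and Plxna4 had the smallest called differences. Plxnc1 was at 67.9, 73 and 82.3 CPM in dorsal and 164, 157 and 109.9 CPM in ventral libraries (log2 fold change -0.93, SE 0.25, adjusted p = 0.0355), and Plxna4 at 794, 782 and 760.3 and 536, 581 and 676 CPM (log2 fold change 0.40, SE 0.11, adjusted p = 0.0377). Neither pair of groups overlapped, and both calls ended without any 1 of the 3 dorsal libraries or of ventral replicates 1 and 2, with adjusted p up to 0.226.

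The long axis of DG gave 9 calls among 29 members, beside 19.4% of all genes (8.71% higher dorsally and 10.6% ventrally). Dorsal granule cells were higher for Plxna4, Sema6d and Sema7a, and ventral granule cells for Plxna1, Plxna2, Plxnc1, Sema4d, Sema4g and Sema6a. Medians of the log2 fold change were -0.59 over the members tested and -0.05 over all genes. Over all genes, 1355 were called higher in dorsal and 1655 in ventral DG, and 1063 and 2078 under upper-quartile scaling, under which the median of all genes moved by -0.14 and the Plxna4 call was lost (adjusted p = 0.111). Depth averaged 7.17 ± 0.59 M reads in dorsal and 15.6 ± 0.86 M in ventral DG. GABAergic markers, mostly Gad1, summed to 88.5 to 107 CPM in dorsal and 41.9 to 63.0 CPM in ventral DG. Other lists were higher in ventral DG without overlap: 7 astrocyte markers, mostly Slc1a2, at 396 to 451 CPM in dorsal and 660 to 776 CPM in ventral libraries, 5 SST interneuron markers at 49.2 to 157 and 185 to 322 CPM, with Sst at 0 in both, and 7 mural and fibroblast markers at 0 to 1.5 and 7.48 to 32.3 CPM. The part of other cells in the differences was not tested.

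Sema7a had the steepest dorsal preference here, at 95.6, 91.3 and 124 CPM in dorsal and 9.82, 10.2 and 17.4 CPM in ventral libraries. The ventral libraries were all low (log2 fold change 3.09, SE 0.29, adjusted p = 3.15e-07). Plxnc1 mirrored it, at 12.1, 19 and 28.2 CPM in dorsal and 106, 147 and 110.4 CPM in ventral libraries, with the dorsal libraries all low (log2 fold change -2.58, SE 0.27, adjusted p = 1.54e-06). Sema6d measured 322, 271 and 138 CPM dorsally and 48.3, 31.5 and 41.5 CPM ventrally. Dorsal libraries varied among themselves but all exceeded the ventral ones (log2 fold change 2.63, SE 0.60, adjusted p = 0.00479). Sema6a, the ligand of Plxna2 and Plxna4 in mossy fibre layering, was at 7.41, 2.31 and 0 CPM in dorsal and 27.4, 21.6 and 31.3 CPM in ventral libraries. It was scarce in dorsal granule cells (log2 fold change -2.99, SE 0.83, adjusted p = 0.016).

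Plxna2 was at 191, 233 and 169 CPM in dorsal and 348, 285 and 302 CPM in ventral DG, a modest but clean difference (log2 fold change -0.62, SE 0.14, adjusted p = 0.00298). Plxna1 held 11.9, 16.2 and 9.94 CPM dorsally and 35.3, 22.9 and 26.8 CPM ventrally, low in both but without overlap (log2 fold change -1.12, SE 0.26, adjusted p = 0.004). Plxna4 differed the other way, from 1269, 1106 and 984 CPM to 820, 916 and 892 CPM (log2 fold change 0.39, SE 0.11, adjusted p = 0.0174), with adjusted p = 0.0774 when dorsal replicate 1 was left out and 0.0839 when ventral replicate 1 was. The class 4 ligands were uneven in dorsal DG: Sema4g was at 0.126, 0 and 4.9 CPM there and at 11.6, 11.1 and 13.4 CPM in ventral libraries. Ventral libraries agreed closely (log2 fold change -2.81, SE 0.90, adjusted p = 0.0327), yet the call ended without dorsal replicate 1 (0.0607) or any 1 ventral library (0.0606 to 0.0739). Sema4d was at 8.79, 24.9 and 2.72 CPM in dorsal and 29.2, 40.9 and 35.9 CPM in ventral libraries. Dorsal replicate 2 was just below the lowest ventral one (log2 fold change -1.51, SE 0.49, adjusted p = 0.0358), and the call ended without dorsal replicate 1 (0.0828) or 3 (0.0639) or any 1 ventral library (0.0518 to 0.0976).

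Plxna4 and Sema7a were thus called higher dorsally, and Plxnc1 higher ventrally, in CA1, CA3 and DG, which share no libraries. Under one fit to all 48 libraries the directions were the same, but none of the 3 genes was called in all 3 regions: Sema7a was lost in CA1 (adjusted p = 0.164) and CA3 (0.131), Plxna4 in CA3 (0.2) and DG (0.0984), and Plxnc1 in CA3 (0.138). Where the long-axis differences themselves were tested, 3 of 29 members differed between CA1 and CA3, beside 3.52% of all genes (1.31% more and 2.21% less dorsal in CA1), and 6 of 29 between CA1 and DG, beside 9.71% (5.09% more and 4.62% less dorsal in CA1). Both tests used the same CA1 libraries. Without ventral DG replicate 1 the DG count was 3. Upper-quartile scaling moved the split of all genes in the DG test from 792 and 718 (more and less dorsal in CA1) to 1049 and 584, with a shift of 0.14 in their median. Sema5a rose ventrally in CA1 from 2.08 ± 0.393 to 7.92 ± 5.47 CPM and dorsally in CA3, a difference of -3.44 on the log2 scale (SE 0.65, adjusted p = 0.00471). Against DG, where its own long-axis difference was not called (adjusted p = 0.22), the Sema5a value was -2.69 (SE 0.65, adjusted p = 0.0146). That call ended without ventral CA1 replicate 1 (adjusted p = 0.0646).

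Nrp2 stood at 35.4, 41.7 and 36.9 CPM in dorsal and 14.2, 23.5 and 29.2 CPM in ventral CA1, not called there (adjusted p = 0.171), while it was higher in ventral CA3. The 2 long-axis differences of Nrp2 differed by 1.95 (SE 0.38, adjusted p = 0.00323), and those of CA1 and DG by 1.32 (SE 0.38, adjusted p = 0.0298). Sema3d was the remaining CA3 case (-5.92, SE 1.18, adjusted p = 0.00522). It was all but absent from dorsal CA1 and present in both CA3 populations. Sema7a fell ventrally in both CA1 and DG, but more in DG (-2.22, SE 0.38, adjusted p = 0.000788). For Plxna1, Plxna2 and Plxna3 the CA1 and DG differences also parted, by 1.53 (adjusted p = 0.00766), 0.74 (0.0174) and -2.08 (0.0214). The call of Plxna2 ended without ventral DG replicate 1 (adjusted p = 0.0507), that of Plxna3 without dorsal CA1 replicate 1 or 3 or ventral DG replicate 1 or 2 (0.0531 to 0.0634), and that of Nrp2 against DG without any 1 of 5 libraries (0.0502 to 0.0786): dorsal CA1 replicates 2 and 3, ventral CA1 replicates 1 and 2, and ventral DG replicate 1.

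Regions were then compared over their 6 dorsal and ventral libraries. Statements on CA1 in these comparisons cover dorsal and ventral CA1 only, not the other CA1 populations. CA1 against CA3 gave 12 calls among 29 members, 4 higher in CA1 and 8 in CA3, beside 13.5% of all genes (5.34% higher in CA1 and 8.15% in CA3). Medians were -0.39 over the members and 0.00 over all genes (CA1 minus CA3). Sema5a ranged over 1.85, 3.23 and 14.2 CPM in CA1 (lowest, median and highest library, as in the following) and over 91.9, 409 and 736 CPM in CA3. Its groups were far apart (log2 fold change -6.45, SE 0.38, adjusted p = 2.43e-09). Sema5b went with it, at 0, 0 and 0.0793 CPM in CA1, where all 6 libraries together held 3 reads, and 1, 25.5 and 53.5 CPM in CA3 (adjusted p = 3.75e-09). The low end in CA3 was the ventral cells.

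Plxnd1 had the opposite pattern, at 12.8, 19.3 and 32.9 CPM in CA1 and 0, 0.281 and 0.757 CPM in CA3. CA3 cells held next to no Plxnd1 (log2 fold change 6.24, SE 0.70, adjusted p = 1.22e-06), although its ligand Sema3e was at 127, 268 and 305 CPM in CA3 and 224, 243 and 264 CPM in CA1, not called (adjusted p = 0.864, 95% interval of the log2 fold change -0.49 to 0.76). Both neuropilins were higher in CA3. Nrp1 was at 84.2, 103 and 118 CPM in CA1 and 233, 275 and 357 CPM in CA3 (log2 fold change -1.47, SE 0.12, adjusted p = 1.17e-08), and Nrp2 at 14.2, 32.3 and 41.7 and 127, 243 and 369 CPM (log2 fold change -2.96, SE 0.20, adjusted p = 9.92e-10). No library of one region reached the other for either neuropilin. Plxna2 was the only further member without overlap, at 304, 352 and 384 CPM in CA1 and 242, 262 and 283 CPM in CA3 (log2 fold change 0.40, SE 0.10, adjusted p = 0.00554). The other 6 calls, in which single libraries overlapped, were Sema3a and Sema7a, higher in CA1, and Sema3d, Sema4g, Sema6a and Sema6d, higher in CA3, with log2 fold changes from -3.89 to 3.61. The Sema6d call ended without ventral CA3 replicate 3 (adjusted p = 0.136), among other libraries. That of Sema7a ended without dorsal CA1 replicate 1 or 2, ventral CA1 replicate 1 or 3, dorsal CA3 replicate 2 or 3, or ventral CA3 replicate 3 (0.0537 to 0.088).

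CA1 against DG gave 20 calls among 29 members, 11 higher in CA1 and 9 in DG, beside 33.1% of all genes (17.4% higher in CA1 and 15.7% in DG). Medians were -0.05 over the members and -0.02 over all genes. In DG, Sema5a was at 744, 968 and 1451 CPM, its highest level in these cells (log2 fold change -7.96, SE 0.40, adjusted p = 9.58e-11), and Sema5b at 16.9, 20.5 and 31.8 CPM (adjusted p = 1.82e-10). Both class 5 ligands were clear of all dorsal and ventral CA1 libraries. Deep CA1, which was not in this comparison, averaged 12.39 CPM of Sema5b. Sema3e turned the other way, with 224, 243 and 264 CPM in CA1 and 1.91, 14.1 and 22.1 CPM in DG (log2 fold change 4.16, SE 0.34, adjusted p = 1.68e-08). Plxna1 was likewise scarce in granule cells, at 122, 208 and 234 CPM in CA1 and 9.94, 19.6 and 35.3 CPM in DG (log2 fold change 3.3, SE 0.19, adjusted p = 2.32e-11). For both, the lowest CA1 library was well above the highest DG library.

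Plxna4 was at 495, 631 and 764 CPM in CA1 and 820, 949.9 and 1269 CPM in DG (log2 fold change -0.68, SE 0.08, adjusted p = 6.65e-07). Nrp1 and Nrp2 were higher in DG than in CA1 too, at 129, 161 and 202 CPM for Nrp1 (log2 fold change -0.66, SE 0.12, adjusted p = 0.000136) and 57.5, 125 and 154 CPM for Nrp2 (log2 fold change -1.9, SE 0.19, adjusted p = 1.25e-07). Plxnd1 held 0.136, 8.46 and 10.2 CPM in DG, below CA1 (log2 fold change 1.8, SE 0.56, adjusted p = 0.0177). For these 4 receptors, too, the dorsal and ventral CA1 libraries tested did not overlap the DG libraries. The other 12 calls were Plxna2, Plxnc1, Sema3b, Sema3c, Sema3d, Sema4a, Sema6c and Sema7a, higher in CA1, and Plxna3, Plxnb1, Sema4b and Sema6d, higher in DG. Of these, Plxnb1 rested on dorsal DG replicate 1, without which its log2 fold change turned from -4.37 to 0.20 (adjusted p = 0.818), and Sema3b lost its call without ventral CA1 replicate 3 (adjusted p = 0.197), dorsal CA1 replicate 1 (0.106) or ventral DG replicate 1 (0.0579) or 2 (0.0565).

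CA3 against DG gave 15 calls among 29 members, 9 higher in CA3 and 6 in DG, beside 36.5% of all genes (19.6% higher in CA3 and 16.9% in DG). Medians were 0.52 over the members and -0.01 over all genes. Sema3d, a secreted class 3 ligand, was at 4.17, 10.1 and 15.5 CPM in CA3 and 0, 0 and 0.0571 CPM in DG, where the 6 libraries together held 2 reads (adjusted p = 1.92e-07). Sema4a, a membrane-bound class 4 ligand, was at 10.3, 13.3 and 18.9 CPM in CA3 and 0.0558, 0.749 and 1.54 CPM in DG (log2 fold change 4.31, SE 0.55, adjusted p = 2.87e-06). Both ligands were close to absent from granule cells. Sema3e and Plxna1 were again low in DG, with 127, 268 and 305 and 101, 181 and 282 CPM in CA3 (log2 fold change 4.02, SE 0.34, adjusted p = 2.39e-08 for Sema3e, and log2 fold change 3.28, SE 0.19, adjusted p = 1.92e-11 for Plxna1). Nrp1 was higher in CA3 (log2 fold change 0.81, SE 0.12, adjusted p = 1.3e-05), while Sema5a (log2 fold change -1.5, SE 0.29, adjusted p = 0.000705) and Plxna4 (log2 fold change -0.54, SE 0.08, adjusted p = 1.33e-05) were higher in DG, all without overlap. The other 8 calls were Nrp2, Plxnc1, Sema3c and Sema6a, higher in CA3, and Plxna3, Plxnb2, Plxnd1 and Sema5b, higher in DG. For Sema5b the plain means ran the other way, at 26.2 ± 26.7 CPM in CA3 and 22.7 ± 5.91 CPM in DG. The fitted value (-1.2) averages dorsal and ventral cells on the log scale. Sema6a lost its call without any 1 of 9 of the 12 CA3 and DG libraries, with adjusted p up to 0.101.

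**Figure D3:**
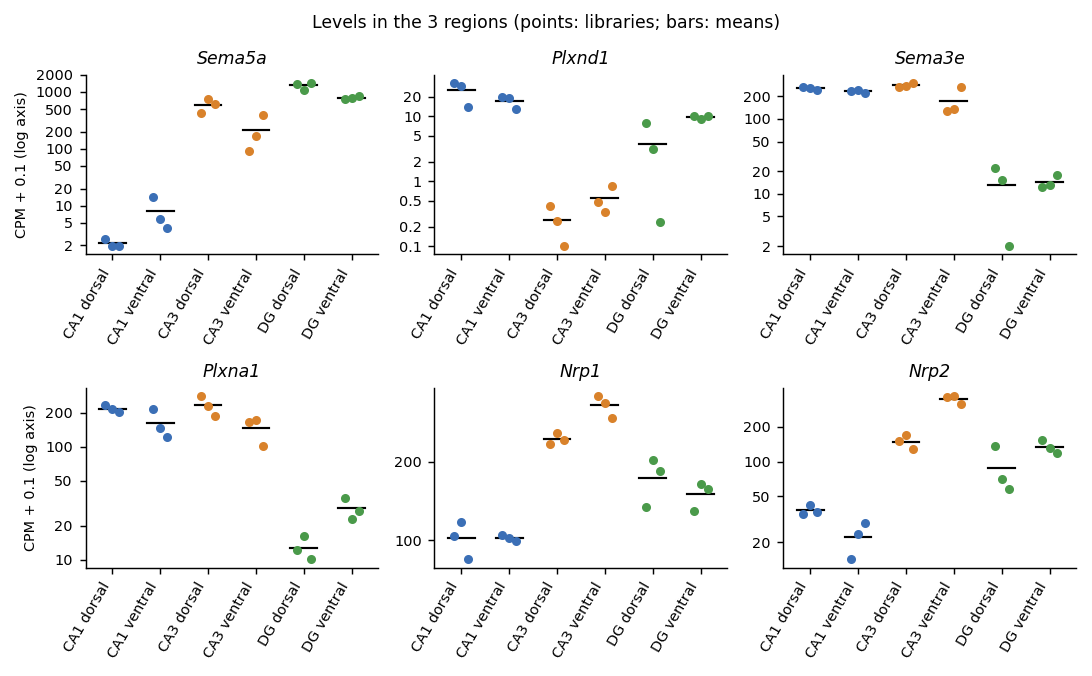
CPM + 0.1 on a log axis for 6 genes in dorsal and ventral CA1, CA3 and DG, with 1 point per library and a bar at each mean. Sema5a rises from CA1 to CA3 to DG, Plxnd1 is near 0 in CA3, Sema3e and Plxna1 are low in DG, and both neuropilins are highest in CA3.

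Within CA1, the transverse axis gave 1 call among 23 members, beside 1.06% of all genes (0.818% higher in proximal and 0.244% in distal cells). Sema3a, the ligand that repels axons through Nrp1, was at 5.18, 2.08 and 7.46 CPM in proximal and 42.5, 32.7 and 20.8 CPM in distal libraries. Every distal library was above every proximal one (log2 fold change -2.68, SE 0.50, adjusted p = 0.0272). The call ended without proximal replicate 1 (adjusted p = 0.0719) or 2 (0.091) or distal replicate 1 (0.143) or 2 (0.114). Proximal replicate 1 also held GABAergic markers at 125 CPM, against 1.92 to 5.96 CPM in the other proximal and distal libraries, and their part in the result was not tested.

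Superficial against deep CA1 gave 0 calls among 26 members with edgeR, beside 2.48% of all genes (0.886% higher in superficial and 1.6% in deep cells). DESeq2 called 4 members, beside 736 of 12533 genes. At an unadjusted edgeR p under 0.05 there were 10 members, and the share of all genes at that p was not computed. The edgeR count was 3 without deep replicate 1 and 1 without deep replicate 2. Nearest to a call were Sema4g, at 0.491, 0.416 and 1.04 CPM in superficial and 1.99, 8.15 and 15.8 CPM in deep libraries (adjusted p = 0.0544), and Sema4f, at 60.05, 75 and 69 and 41.5, 21.4 and 29.9 CPM (adjusted p = 0.0575). Plxnd1 was at 68.7, 76.4 and 65.3 CPM in superficial and 120.5, 81.7 and 94.8 CPM in deep libraries, with deep cells the highest of all 16 populations (adjusted p = 0.214, 95% interval of the log2 fold change -0.95 to -0.11). Sema5b reached 5.44, 1.71 and 30.02 CPM in deep libraries. The deep libraries held GABAergic markers at 151, 441 and 696 CPM and the superficial ones at 14.8, 15.8 and 141 CPM. Other lists were also apart without overlap. Mural and fibroblast markers read 42.8 to 115 CPM in deep and 4.36 to 7.6 CPM in superficial libraries. Astrocyte markers read 342 to 534 and 225 to 291 CPM, PV interneuron markers 73.8 to 190 and 20.9 to 66.7 CPM. CA3 markers read 17.4 to 56.8 and 6.37 to 13.6 CPM. CA1 markers were lower in deep libraries, at 1038 to 1211 CPM against 1679 to 1805 CPM. The part of other cells in these values was not tested.

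Projection-defined cells came next. Postsubiculum-projecting against dorsal CA1 gave 2 calls among 23 members, both higher in the projecting cells, beside 10.8% of all genes (5.24% higher in projecting and 5.58% in dorsal cells). Sema3e was at 494, 377 and 382 CPM in projecting and 264, 260 and 243 CPM in dorsal libraries. The lowest projecting library was well above the highest dorsal one (log2 fold change 0.73, SE 0.12, adjusted p = 0.00392). Nrp1 measured 169.8, 131 and 162 CPM in projecting and 104, 118 and 84.2 CPM in dorsal libraries, also without overlap (log2 fold change 0.62, SE 0.17, adjusted p = 0.0394). Its call ended without any 1 dorsal library or projecting replicates 1 or 3, with adjusted p up to 0.157. Projecting replicate 2 held GABAergic markers at 63.1 CPM, against 0.325 and 0.622 CPM in the other projecting libraries. Other lists were apart without overlap. CA1 markers read 1143 to 1388 CPM in projecting and 1784 to 2024 CPM in dorsal libraries. Astrocyte markers read 202 to 237 and 282 to 376 CPM, and CA3 markers 6.58 to 11.9 and 14.9 to 20.8 CPM. SST interneuron markers read 115 to 144 and 52.2 to 75.5 CPM, with Sst at 0 in both. Mean depth was 14.7 M and 25.9 M reads. The part of other cells was not tested.

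Amygdala-projecting against accumbens-projecting CA1 gave 0 calls among 25 members with edgeR, beside 0.0231% of all genes. DESeq2 called 0 members, beside 199 of 12981 genes. At an unadjusted edgeR p under 0.05 there were 6 members, and the share of all genes at that p was not computed. Without accumbens-projecting replicate 3, which held GABAergic markers at 73.9 CPM and Sst at 516 CPM, the edgeR count was 1. Single accumbens-projecting libraries differed widely: Plxnd1 was at 46, 0.294 and 2.14 CPM there, Nrp1 at 44.5, 79.6 and 2.57 CPM and Sema6a at 18.1, 73.7 and 39.4 CPM. The Sema6a libraries were all above those of amygdala-projecting cells, at 0, 12.9 and 0.258 CPM (adjusted p = 0.459, 95% interval of the log2 fold change -6.17 to -0.46). At this spread a difference of that size did not pass the test.

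Against ventral CA1, amygdala-projecting cells gave 1 call among 25 members, beside 2.38% of all genes (1.59% higher in projecting and 0.786% in ventral cells). Nrp1 was at 10.8, 5.79 and 14 CPM in projecting and 104, 102 and 99 CPM in ventral libraries. Projecting cells held far less Nrp1 (log2 fold change -3.31, SE 0.78, adjusted p = 0.0338), but the call ended without any 1 of the 6 libraries, with adjusted p from 0.0743 to 0.146. Without amygdala-projecting replicate 2 Nrp1 was not called and 2 other members were. Accumbens-projecting cells gave 0 calls among 25 members with edgeR, beside 2.04% of all genes (1.49% and 0.555%). DESeq2 called 2 members, beside 694 of 12981 genes. At an unadjusted edgeR p under 0.05 there were 3 members, and the share of all genes at that p was not computed. Over all genes the split of calls was 193 higher and 72 lower in accumbens-projecting cells, and 144 and 106 under upper-quartile scaling. Sema6d was low in both projecting groups, at 1.38, 0.594 and 0.62 CPM and 0.0581, 0.661 and 1.41 CPM, against 23.6, 20.2 and 6.58 CPM in ventral CA1, but neither difference was called (adjusted p = 0.0891 and 0.0863). The 10 endothelial markers together read 55.2 to 105 CPM in amygdala-projecting and 15.8 to 61.3 CPM in accumbens-projecting libraries, against 2.75 to 7.04 CPM in ventral CA1. Most of that was Kdr, with Cldn5 and Cdh5 at 0. Some other lists were apart too. In amygdala-projecting libraries, GABAergic markers read 0.207 to 0.446 CPM, against 14.1 to 18.7 CPM in ventral ones. Their astrocyte markers read 621 to 741 CPM against 374 to 495, and PV interneuron markers 47.8 to 80.4 against 25.9 to 41.4. CA3 markers read 75.8 to 84.9 CPM in accumbens-projecting and 22.3 to 24.6 CPM in ventral libraries. Mean depth was 18.5 M, 16.1 M and 7.01 M reads in amygdala-projecting, accumbens-projecting and ventral cells. The part of other cells in these values was not tested. Kdr is also a co-receptor of the pathway, at 65.1 ± 32.5 CPM in amygdala-projecting, 35.9 ± 22.3 CPM in accumbens-projecting and 1.12 ± 1.93 CPM in ventral cells (log2 fold change 5.77, SE 1.12, adjusted p = 0.0113 for amygdala-projecting, and log2 fold change 4.92, SE 1.09, adjusted p = 0.0287 for accumbens-projecting cells). It and Chl1, which was lower in projecting cells, were the 2 of 10 co-receptors called in each comparison.

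**Figure D4:**
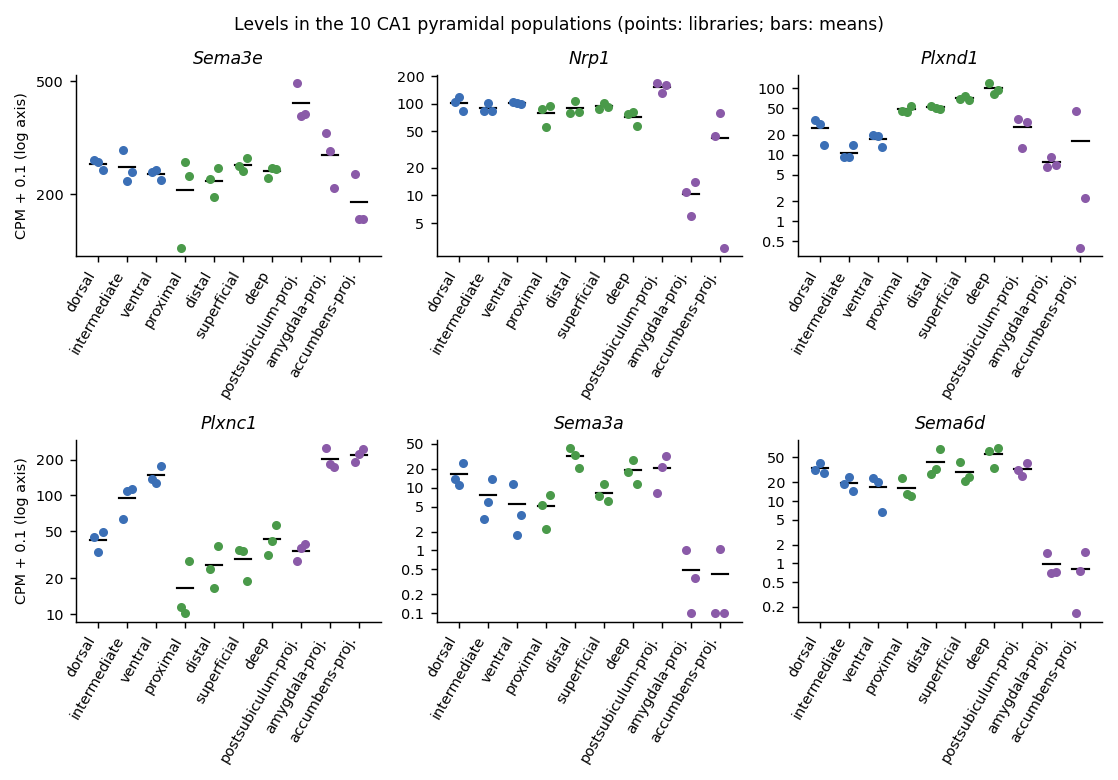
CPM + 0.1 on a log axis for 6 genes in the 10 CA1 pyramidal populations, with 1 point per library and a bar at each mean. Sema3e and Nrp1 are highest in postsubiculum-projecting cells, Plxnc1 climbs from dorsal to ventral and to amygdala- and accumbens-projecting cells, and Sema3a and Sema6d are lowest in cells projecting to the amygdala and accumbens. For Plxnc1, neither amygdala- nor accumbens-projecting cells were called against ventral CA1.

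The interneurons differed from each other in 5 of 26 members, beside 6.15% of all genes (2.62% higher in PV and 3.53% in SST cells). Medians were -0.54 over the members and 0.01 over all genes (PV minus SST). SST cells were higher for 3 ligands. Sema3a was at 47.1, 15.8 and 11.6 CPM in PV and 133, 132 and 178 CPM in SST libraries, Sema3e at 0.239, 1.03 and 0.548 and 15.4, 17.7 and 56 CPM, and Sema6d at 9.89, 17.5 and 31.3 and 147, 158 and 173 CPM. For none of the 3 did the groups overlap (log2 fold change -2.56, SE 0.50, adjusted p = 0.00924 for Sema3a, log2 fold change -5.6, SE 0.59, adjusted p = 0.000182 for Sema3e, and log2 fold change -3.03, SE 0.37, adjusted p = 0.000487 for Sema6d). PV cells were higher for Plxna4, at 377, 387 and 543 CPM against 90.7, 119 and 126 CPM (log2 fold change 1.96, SE 0.20, adjusted p = 0.000112), and for Sema7a, at 40.9, 52 and 64.7 against 17.9, 21.3 and 4.77 CPM (log2 fold change 1.84, SE 0.45, adjusted p = 0.029). The Sema7a call ended without SST replicate 1 (adjusted p = 0.0586) or PV replicate 2 (0.0638) or 3 (0.0967). Without SST replicate 3 the count of calls was 8. The SST libraries held oligodendrocyte lineage markers at 141, 824 and 49.6 CPM and microglia markers at 31.3 to 69.1 CPM, against at most 36.7 and 6.93 CPM in PV libraries. SST interneuron markers stood at 1982, 1827 and 547.5 CPM in PV libraries, against 7553 CPM or more in SST libraries, and PV interneuron markers at 328 to 564 CPM in SST libraries, against 2925 CPM or more in PV libraries. The 5 CA3 markers, mostly Cpne4 and Coch in SST cells, read 142 to 312 CPM in SST and 6.38 to 29.2 CPM in PV libraries. The part of other cells in these differences was not tested.

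PV interneurons against dorsal CA1 pyramidal cells gave 14 calls among 26 members, 5 higher in PV cells and 9 lower, beside 29.7% of all genes (16.3% higher in PV cells and 13.4% lower). Medians were -0.23 over the members and 0.13 over all genes. Sema3e and its receptor Plxnd1 were both near the floor in PV cells, Plxnd1 at 0.16, 0.0738 and 0.117 CPM against 32.9, 28.9 and 13.9 CPM in dorsal CA1 (log2 fold change -7.67, SE 1.24, adjusted p = 0.000485; log2 fold change -8.68, SE 0.66, adjusted p = 1.08e-06 for Sema3e). Sema4g was at 50.1, 33.8 and 59 CPM in PV cells and Sema6a at 58.5, 42.9 and 38.9 CPM, against 0.436, 0.337 and 0.136 and 3.57, 2.36 and 0.455 CPM in dorsal CA1. Both were much higher in PV cells (log2 fold change 7.28, SE 0.62, adjusted p = 2.93e-06 for Sema4g, and log2 fold change 4.47, SE 0.56, adjusted p = 7.1e-05 for Sema6a). Nrp1 was at 12.6, 16.5 and 21.3 CPM and Plxna1 at 70.8, 63 and 84.7 CPM in PV cells, against 104, 118 and 84.2 and 234, 215 and 202 CPM in dorsal CA1. These receptors were lower in each PV library (log2 fold change -2.58, SE 0.38, adjusted p = 0.00025 for Nrp1, and log2 fold change -1.55, SE 0.25, adjusted p = 0.000446 for Plxna1). Plxnb2, at 0.239, 3.5 and 1.29 CPM in PV cells, was lower (log2 fold change -3.04, SE 0.88, adjusted p = 0.0211), a call lost without any 1 dorsal library (0.0516 to 0.0548) or PV replicate 3 (0.066), and Sema5a, at 4.07, 15.1 and 21.5 CPM, was higher (log2 fold change 2.71, SE 0.67, adjusted p = 0.00872). The other 6 calls were Nrp2, Plxna2, Plxna4 and Sema3c, lower in PV cells, and Plxnc1 and Sema4d, higher, with log2 fold changes from -6.09 to 1.26. That of Nrp2 ended without dorsal replicate 2 (0.0647).

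SST interneurons against dorsal CA1 gave 15 calls among 26 members, 8 higher in SST cells and 7 lower, beside 27.4% of all genes (15.6% higher in SST cells and 11.9% lower). Medians were 0.06 over the members and 0.09 over all genes. Plxnd1 was at 0.549, 0 and 0 CPM and Nrp1 at 3.73, 5.87 and 10.1 CPM in SST cells, both below dorsal CA1 (log2 fold change -7.11, SE 1.21, adjusted p = 0.000839 for Plxnd1, and log2 fold change -3.92, SE 0.41, adjusted p = 1.74e-05 for Nrp1). Sema3e, at 15.4, 17.7 and 56 CPM, was lower as well (log2 fold change -3.08, SE 0.50, adjusted p = 0.00058). Sema4g and Sema6a were higher, at 21.6, 17.3 and 51 and 61.6, 86.1 and 73.3 CPM (log2 fold change 6.61, SE 0.61, adjusted p = 6.33e-06 for Sema4g, and log2 fold change 5.13, SE 0.58, adjusted p = 3.55e-05 for Sema6a). Sema3a was also higher in every SST library, with dorsal CA1 at 13.4, 11 and 25 CPM (log2 fold change 3.19, SE 0.51, adjusted p = 0.00059). Plxna3 was at 22.4, 19.2 and 7.77 CPM (log2 fold change 3.18, SE 0.84, adjusted p = 0.0138), which ended when dorsal replicate 1 (0.0558), dorsal replicate 3 (0.058) or SST replicate 1 (0.0503) was left out, and Sema5a at 9.5, 11.4 and 27.1 CPM (log2 fold change 2.96, SE 0.68, adjusted p = 0.00612). The other 7 calls were Nrp2, Plxna1, Plxna4 and Sema7a, lower in SST cells, and Plxnc1, Sema4d and Sema6d, higher, with log2 fold changes from -2.73 to 2.28. SST libraries held oligodendrocyte lineage markers at 49.65 to 824 CPM and microglia markers at 31.3 to 69.1 CPM. Dorsal CA1 held 13.6 to 27.4 and 0.476 to 1.23 CPM. CA3 markers were also higher in SST libraries (142 to 312 against 14.9 to 20.8 CPM), and astrocyte markers lower (130 to 192 against 282 to 376 CPM). The part of other cells in either interneuron comparison was not tested. Both interneuron comparisons used the same dorsal CA1 libraries, and the interneurons carry no label for dorsal or ventral.

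**Figure D5:**
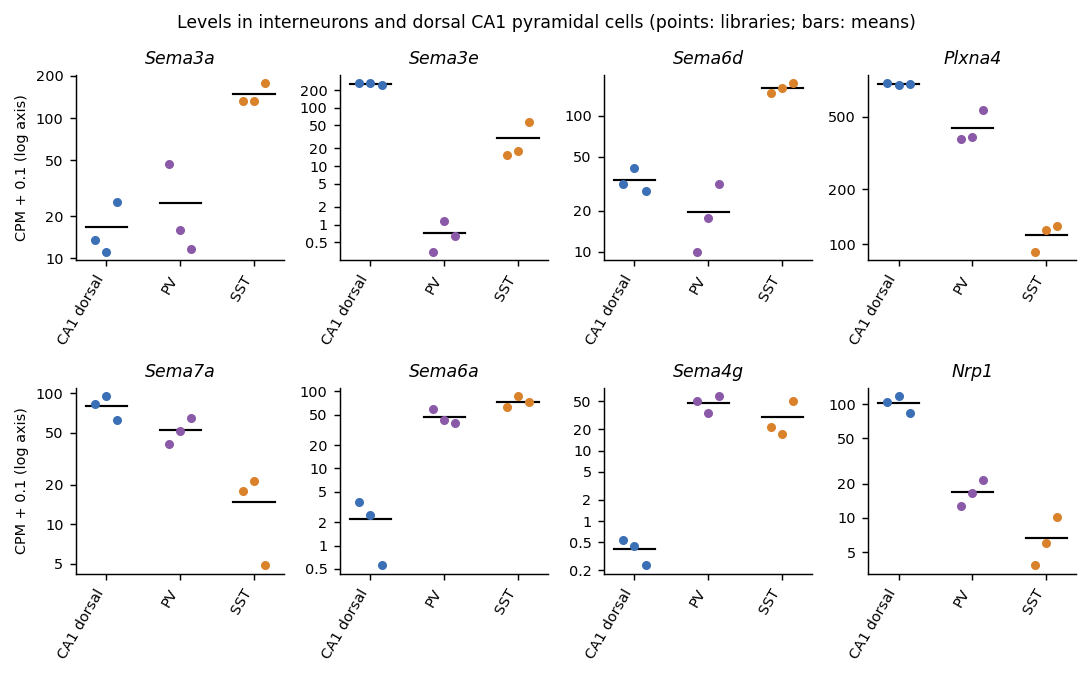
CPM + 0.1 on a log axis for 8 genes in dorsal CA1 pyramidal cells and PV and SST interneurons, with 1 point per library and a bar at each mean. Sema3a and Sema6d are highest in SST cells, Sema3e is at or under 1.03 CPM in PV cells, and Sema6a and Sema4g are far higher in both interneuron types than in dorsal CA1.

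Beside the ligands and receptors, 12 co-receptors and 37 cytoplasmic effectors of the pathway were read. On the CA1 long axis, 4 of the 7 co-receptors tested were called, beside 15.1% of all genes, and all 4 were higher in ventral cells (beside 7.95%): Chl1, L1cam, Met and Nrcam. The adhesion molecule Chl1 averaged 593 ± 19 CPM dorsally and 1168 ± 31.9 CPM ventrally (log2 fold change -1.02, SE 0.10, adjusted p = 4.18e-07), and its relative L1cam 214 ± 12.9 and 376 ± 7.87 CPM (log2 fold change -0.86, SE 0.10, adjusted p = 5.25e-06). In CA3, 0 of 10 co-receptors were called by edgeR or DESeq2 on the long axis, with 0 at an unadjusted p under 0.05, and in DG 5 of 10 were, beside 19.4% of all genes, of which only Nrcam was higher dorsally. Effectors called on the long axis numbered 6 of 33 in CA1, beside 15.1% of all genes and thus near that share, 4 of 34 in CA3, beside 4.97%, and 13 of 34 in DG, beside 19.4%. Tiam1, an activator of Rac, averaged 15.8 ± 3.99 CPM dorsally and 54.1 ± 7.92 CPM ventrally in CA1 (log2 fold change -1.82, SE 0.26, adjusted p = 4.33e-05), and Rnd2, a GTPase of the Rnd family, whose members bind plexins, 1.77 ± 1.12 CPM dorsally and 28.5 ± 15.7 CPM ventrally in CA3 (log2 fold change -3.99, SE 0.64, adjusted p = 0.000381).

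Between regions, 15 of 34 effectors differed between CA1 and DG, beside 33.1% of all genes, and 19 of 34 between CA3 and DG, beside 36.5%. Pak1, a kinase downstream of Rac, was at 703 ± 62.8 CPM in CA1, 778 ± 67 CPM in CA3 and 293 ± 45.6 CPM in DG (log2 fold change 1.28, SE 0.08, adjusted p = 6.52e-11 for CA1, and log2 fold change 1.42, SE 0.08, adjusted p = 1.17e-11 for CA3). The adhesion molecule Cntn2 was at 39.8 ± 5.2 CPM in CA1 and 2.26 ± 1.93 CPM in DG (log2 fold change 4.76, SE 0.35, adjusted p = 1.02e-09). In interneurons against dorsal CA1, 16 of 36 effectors were called for PV cells, beside 29.7% of all genes, and 13 of 36 for SST cells, beside 27.4%. Mical2, of the family of oxidases that link plexins to actin, was at 208 ± 40.4 CPM in PV, 142 ± 25 CPM in SST and 899 ± 25.5 CPM in dorsal CA1 (log2 fold change -2.09, SE 0.20, adjusted p = 7.59e-06 for PV, and log2 fold change -2.64, SE 0.20, adjusted p = 1.56e-06 for SST). Rnd2 was at 98.1 ± 12.7 CPM in PV and 0.347 ± 0.0967 CPM in dorsal CA1 (log2 fold change 8.16, SE 0.39, adjusted p = 1.81e-08).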

How the data were processed

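RNA of 48 libraries was read per gene. Per the submitters' processing notes the tools were TopHat2 2.0.6, HTSeq, Cuffdiff 2.1.1 and DESeq2, with the builds NCBIM37 and mm9, whose roles are not stated. The authors deposited raw counts per gene for 37620 genes and a separate table of FPKM values. Names were found for 32897 of the genes. The strand setting of the counting is not given in the sources used here. Reads in no feature were 21.3% to 47.5% of a library and ambiguous reads 2.24% to 2.71%, and both were left out together with the spike-ins. The FPKM values were used as deposited, for levels only.

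Counts were tested with edgeR 4.0.16 (quasi-likelihood, TMM, R 4.3.3, limma 3.58.1), each comparison fitted over all genes that passed the edgeR expression filter, with Benjamini-Hochberg adjustment and a call at an adjusted p under 0.05. Tests of regions weighted dorsal and ventral cells equally. Alternatives were upper-quartile scaling, no filter on low counts, DESeq2 1.42.0, the replicate number as a block, one fit to all 48 libraries and leaving out each library. The fits were tested on simulated data in which all genes shared the same spread, which real counts need not do. None of the 48 pairs of libraries of 1 population agreed within sampling noise (lowest chi-square per degree of freedom 12.3).

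Replicates are numbered 1 to 3 as in the count table. A gene was given library by library where it was called, the groups did not overlap and the higher one averaged 10 CPM or more. Where over 8 qualified, the 8 largest changes were given. The gene with the highest mean FPKM of each class was given in every population. Genes near 0 everywhere were named, and pathway genes were named only among the smallest p-values of their list. The members, lists and tests were chosen with earlier results of these data known. The data cannot show differences below about 1 read, worth 0.030 to 0.183 CPM.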

Additional observations from a re-analysis of the deposited data

Results flagged for a closer look

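The long-axis difference, dorsal minus ventral on the log2 scale, was tested for a change from CA1 to another region in edgeR, and 9 results passed at an adjusted p under 0.05. Between CA1 and CA3 the difference of differences was -5.92 for Sema3d, -3.44 for Sema5a and 1.95 for Nrp2. Between CA1 and DG it was -2.69 for Sema5a, -2.22 for Sema7a, 1.53 for Plxna1, 0.74 for Plxna2, -2.08 for Plxna3 and 1.32 for Nrp2. A negative value means that the gene was less dorsal, or more ventral, in CA1 than in the other region. Sema5a and Nrp2 passed in both tests, which share their CA1 libraries.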

How the results depend on the processing

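Of 131 calls of a member in a comparison, 73 held under every alternative run and 57 were lost under at least 1, of which 33 were lost when a library was left out. One reversed, that of Plxnb1, CA1 against DG, whose log2 fold change was 0.20 without dorsal DG replicate 1 and ran down to -4.70 with other libraries left out. Counts of called members are given next, and the cause of each change was not tested. One fit to all 48 libraries gave 5 calls on the CA1 long axis, 1 for dorsal against intermediate CA1, 0 for intermediate against ventral CA1, 2 in CA3, 5 in DG, 9 for CA3 against DG, 0 and 2 for the long-axis difference of CA1 against CA3 and DG, 0 for proximal against distal, 2 for amygdala against accumbens, 6 and 4 for these against ventral CA1, and 1 for postsubiculum-projecting cells. Without a filter on low counts there were 4 for intermediate against ventral CA1, 3 for proximal against distal, 3 for superficial against deep, 2 for amygdala against accumbens, 3 and 2 for these against ventral CA1, and 9 for PV against SST. DESeq2 gave 6 for proximal against distal, 4 for superficial against deep, and 4 and 2 for amygdala- and accumbens-projecting against ventral CA1, and upper-quartile scaling 2 and 1 for the last pair. Leaving out 1 library gave 2 to 7 for dorsal against intermediate CA1, 0 to 1 for intermediate against ventral CA1, 4 to 9 in CA3, 3 to 7 for the long-axis difference of CA1 against DG, 0 to 1 for proximal against distal, 0 to 3 for superficial against deep, 0 to 1 for amygdala against accumbens, 0 to 2 for amygdala-projecting against ventral CA1, 1 to 3 for postsubiculum-projecting cells and 4 to 8 for PV against SST. Over all genes, counts of calls also moved. Which group had more of them turned in some comparisons. DESeq2 called 2688 genes higher in CA1 and 3087 in DG, against 2713 and 2439 in the main test. For CA3 and DG it called 2994 and 3245, against 3044 and 2629. In the fit to all libraries 2063 were higher in PV cells and 2218 in dorsal CA1, against 2391 and 1971. For SST cells and dorsal CA1 these were 2001 and 2023, against 2287 and 1744. DESeq2 gave 855 against 547 and 2394 against 1510 for the long-axis differences of CA1 against CA3 and DG, 591 against 135 for proximal against distal, 736 against 311 for superficial against deep, 199 against 3 for amygdala against accumbens, 748 against 309 and 694 against 265 for these against ventral CA1, 2363 against 1370 for postsubiculum-projecting cells and 1677 against 903 for PV against SST. Without a filter there were 301, 511, 180, 662 and 543 for proximal against distal, superficial against deep, amygdala against accumbens and these against ventral CA1. The fit to all libraries gave 665 against 1837, 101 against 599 and 80 against 611 along CA1, 438 against 773 in CA3, 1883 against 3010 in DG, 296 and 792 for the long-axis differences, 65 for superficial against deep, 354 for amygdala against accumbens, 926 and 915 for these against ventral CA1 and 765 for postsubiculum-projecting cells.

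Deviations from the population mean correlated at -0.0437 to 0.0481 between same-numbered libraries and at -0.0559 to 0.0418 between differently numbered ones. The main tests therefore did not pair by replicate number. Whether same-numbered libraries shared an animal or a batch was not tested. With the replicate number as a block, counts were 3 for dorsal against intermediate CA1, 1 for intermediate against ventral CA1, 2 for proximal against distal and 1 for postsubiculum-projecting cells, and stayed within 1.5 times elsewhere. Over all genes the block gave 1 call against 3 for amygdala against accumbens.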
